A study of Mus musculus with 5 samples.

Results

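Macrophages and their monocyte precursors were followed through 35 genes, the growth factor Csf1 among them, in heart grafts after cold ischemia-reperfusion (I/R). A gene counted as measured where a probe set of the array carried it as its only symbol in the platform annotation (an older symbol of the same gene included), and the brightest such probe set stood for the gene. With this rule 34 of the 35 genes were measured, among 19938 genes in all. Every one of the 34 had a single such probe set. Ly6c2, the surface antigen of classical monocytes, stood only on probe sets that also name Ly6c1, so no value is given for it. The genes were grouped by role into a growth factor and its receptor (2 measured genes), pan-macrophage and lysosomal genes (8), genes of recruited monocytes (7 of 8), genes of resident macrophages (7), Fc receptors and signaling adaptors (5), and scavenger, lipid and lectin receptors (5).

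Hearts of 8-week-old C57BL/6 donors were placed into the abdomen of syngeneic C57BL/6 recipients. The I/R hearts were kept for 18 h in University of Wisconsin solution at 4 °C before implantation, and the non-I/R hearts were implanted without storage. RNA of each graft was hybridised to its own Affymetrix Mouse Gene 1.0 ST array, for 3 I/R grafts (2553, 2555 and 2557) and 2 non-I/R grafts (2554 and 2556). The labels put harvest at 24 h after transplantation, and the study's text puts it at day 2. Both groups are transplanted hearts, so reperfusion and surgery are common to them and cold storage is what sets them apart, and a heart without transplantation is not among the samples used. Donor and recipient are of the same strain, so donor macrophages and recipient monocytes cannot be told apart on these arrays.

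The heart holds resident macrophages that settle before birth and renew themselves in place, and after injury it takes up monocytes from the blood. Resident cells in mice are known for Timd4, Folr2, Lyve1, Mrc1 and Cbr2 and for low Ccr2. Classical monocytes leave the marrow through the chemokine receptor Ccr2, enter injured muscle and become macrophages there. Macrophages depend on the growth factor Csf1 and its receptor Csf1r, and the transcription factor PU.1 (Spi1) switches on most genes of the lineage.

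Signals are log2 values made by RMA, so a difference of 1 is a doubling. The arrays had medians between 6.58 and 6.65. The number of arrays limits the precision: only 10 splits of 5 grafts into 3 and 2 exist, so an exact two-sided permutation test cannot go below 0.1. Across 21789 probe sets tested with limma, 0 passed an adjusted p of 0.05 (0.0%), the smallest adjusted p was 0.18, and 3265 had an unadjusted p under 0.05. The t-test that the study's methods imply gave 2 probe sets after adjustment and 2014 before it. The labels do not say how the grafts relate to animals, and the p-values therefore stand for the spread among these 5 samples.

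Of 7 measured genes of recruited monocytes 3 had higher signals in the I/R grafts at an unadjusted p under 0.05, Chil3 2.18-fold, Ccr2 1.64-fold and Clec4n 1.55-fold above the non-I/R grafts, and the other 4 overlapped between the groups. Most genes of resident macrophages had lower means in the I/R grafts, with Cbr2 2.12-fold, Folr2 1.57-fold and Cd163 1.54-fold below, and none of them passed the test. Genes that all macrophages share did not separate the groups. No member passed the adjusted p, and the smallest among them was 0.282. At an unadjusted p under 0.05, 6 of 34 members (17.6%) were higher in the I/R grafts, where 7.64% of all probe sets were, and 0 were lower, where 7.35% of all probe sets were. The groups did not overlap in 7 members with higher signals (20.6%) and in 2 with lower signals (5.88%), against 15.8% and 16.2% of all probe sets. Over the 34 members the median log2 fold change was 0.17, with 21 higher and 13 lower means, and over all probe sets it was -0.01 with quartiles of -0.11 and 0.10. Without non-I/R 2556 the median of the members was -0.03.

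**Figure D1:**
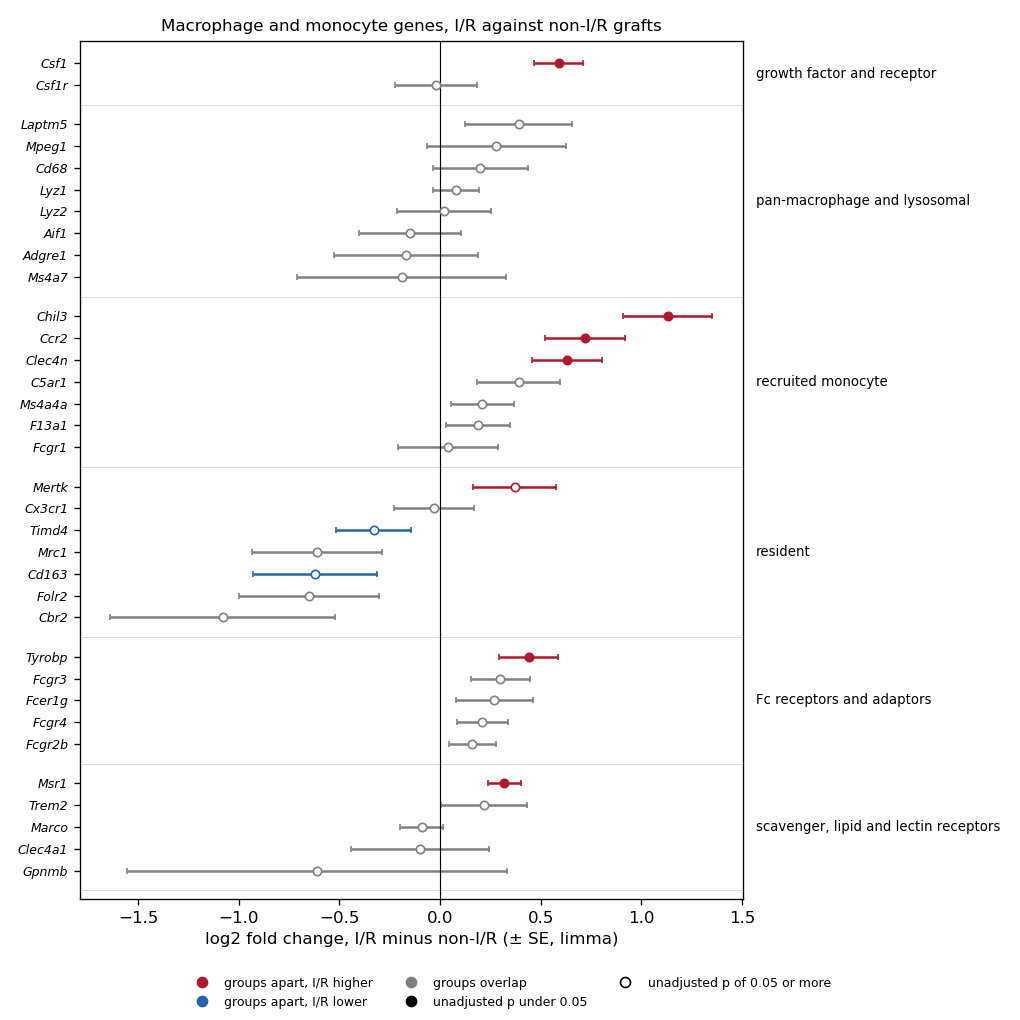
Log2 fold change of I/R against non-I/R grafts for the 34 measured macrophage and monocyte genes, with its standard error from limma, grouped by role. Filled points had an unadjusted p under 0.05, and colours mark genes whose groups did not overlap; the filled points all lie above 0, from 0.32 for Msr1 to 1.13 for Chil3, while 6 of the 7 resident genes lie below 0.

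Csf1, the growth factor that macrophages need to survive, was higher in the I/R grafts. It is not a marker of the lineage, and which cells of the graft made Csf1 was not tested. The signals of Csf1 were 10.29, 10.60 and 10.57 in I/R 2553, 2555 and 2557, against 9.97 and 9.83 in non-I/R 2554 and 2556. Every I/R graft lay above both non-I/R grafts, by at least 0.33. The log2 fold change was 0.59 (SE 0.122; limma, adjusted p = 0.282). Its receptor Csf1r, which marks the lineage, had 9.83, 9.75 and 9.48 in the I/R grafts, against 9.96 and 9.47 in the non-I/R grafts. All I/R values lay within the range of the non-I/R values, with a log2 fold change of -0.02 (SE 0.202). Between the non-I/R grafts Csf1r differed by more than between the group means.

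Among the genes of recruited monocytes all 7 measured had higher means in the I/R grafts, with a median log2 fold change of 0.39, and 3 of them had an unadjusted p under 0.05. The median was 0.59 without non-I/R 2554 and 0.19 without non-I/R 2556. Ccr2 had signals of 9.99, 9.82 and 9.42 in the I/R grafts, against 8.99 and 9.06 in the non-I/R grafts. The groups did not overlap, and the non-I/R grafts lay close to each other. Its log2 fold change was 0.72 (SE 0.197; adjusted p = 0.29). Chil3, a chitinase-like protein that monocytes and alternatively activated macrophages secrete and that neutrophils also carry, had 9.08, 9.63 and 9.68 in the I/R grafts, against 8.31 and 8.36 in the non-I/R grafts. Its log2 fold change of 1.13 (SE 0.223; adjusted p = 0.282) was the highest of the members. Chil3 was on a list that the study chose from these arrays, so its direction is not independent evidence, and its near copy Chil4 could share the hybridisation. Clec4n, which encodes the fungal lectin receptor Dectin-2, had 8.89, 9.0 and 8.53 in the I/R grafts, against 8.26 and 8.09 in the non-I/R grafts. All I/R values lay above the non-I/R ones, and the log2 fold change was 0.63 (SE 0.172; adjusted p = 0.29).

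The other 4 genes of this group overlapped between the groups. The group name is the role by which its genes were listed, and they need not be made by recruited monocytes only. C5ar1, the receptor of complement fragment C5a on monocytes and neutrophils, had 10.23, 10.37 and 9.92 in the I/R grafts, against 9.99 and 9.59 in the non-I/R grafts. Only I/R 2557 fell below the higher non-I/R graft, and the log2 fold change was 0.39 (SE 0.204). F13a1, the coagulation factor XIII subunit of monocytes, was nearly the same in the I/R grafts at 10.80, 10.80 and 10.81, and had 10.85 and 10.38 in the non-I/R grafts. Its log2 fold change was 0.19, and -0.05 without non-I/R 2556. Ms4a4a, a membrane protein of macrophages, had a log2 fold change of 0.21. Fcgr1, the high-affinity receptor for IgG, had 9.79, 9.58 and 9.27 in the I/R grafts, against 9.78 and 9.24 in the non-I/R grafts, which gave 0.04 (SE 0.249).

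**Figure D2:**
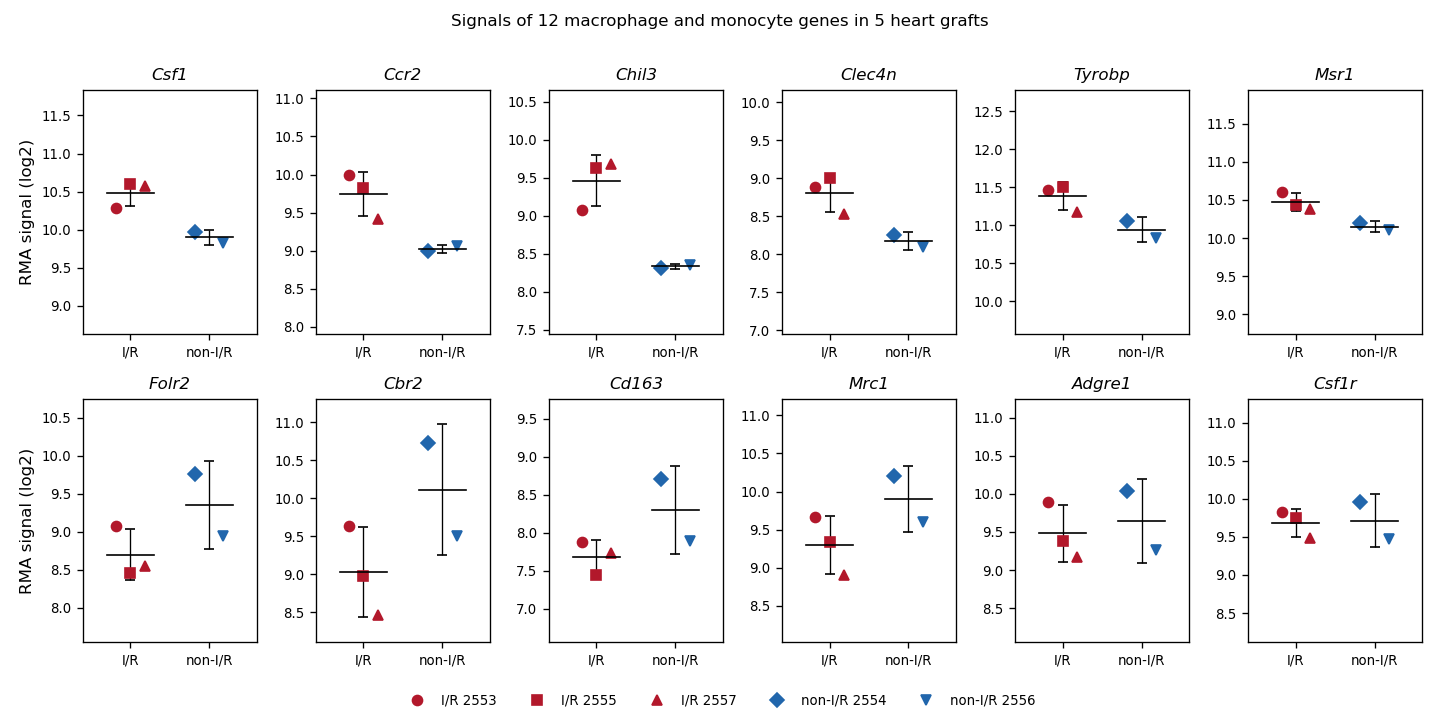
RMA signals (log2) of 12 macrophage and monocyte genes in each graft, with I/R grafts in red, non-I/R grafts in blue, and lines and bars for the group mean and SD; every panel spans the same log2 range. The upper row holds the 6 genes with an unadjusted p under 0.05, in which no I/R graft falls to the level of a non-I/R graft, and the lower row holds resident genes, Adgre1 and Csf1r, in which non-I/R 2554 is the highest graft.

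Markers of resident macrophages ran the other way in most cases. Of 7 measured genes 6 had lower means in the I/R grafts, the median log2 fold change was -0.61, and 0 had an unadjusted p under 0.05. The lowest was Cbr2, a carbonyl reductase that marks resident tissue macrophages, with signals of 9.64, 8.98 and 8.47 in the I/R grafts, against 10.72 and 9.51 in the non-I/R grafts. I/R 2553 lay above non-I/R 2556, and the log2 fold change was -1.08 (SE 0.559; adjusted p = 0.447). Folr2, a folate receptor of long-lived macrophages, had 9.08, 8.46 and 8.55 in the I/R grafts, against 9.76 and 8.94 in the non-I/R grafts, and a log2 fold change of -0.65 (SE 0.349, with adjusted p = 0.46). Here too only I/R 2553 overlapped the non-I/R range. The mannose receptor Mrc1 had 9.66, 9.34 and 8.90 in the I/R grafts, against 10.21 and 9.60 in the non-I/R grafts, with a log2 fold change of -0.61 (SE 0.323, with adjusted p = 0.456).

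Cd163, the receptor that clears haemoglobin bound to haptoglobin, had 7.88, 7.44 and 7.73 in the I/R grafts, against 8.71 and 7.89 in the non-I/R grafts. The groups did not overlap, but by only 0.01, and the log2 fold change was -0.62 (SE 0.309; adjusted p = 0.438). Timd4, which binds phosphatidylserine on dying cells, had 5.95, 5.89 and 5.95 in the I/R grafts, against 6.54 and 5.98 in the non-I/R grafts. Its signal was dim, below the median of the arrays, the groups were apart by 0.02, and the log2 fold change was -0.33 (SE 0.188; adjusted p = 0.477). Of the 2 non-I/R grafts, 2554 was the higher in all 5 genes (Cbr2, Folr2, Mrc1, Cd163 and Timd4). Without it the log2 fold changes were -0.48 for Cbr2, -0.24 for Folr2, -0.31 for Mrc1, -0.21 for Cd163 and -0.05 for Timd4, and the median of the 7 resident genes was -0.21. Without non-I/R 2556 they were -1.69, -1.06, -0.92, -1.03 and -0.61, and the median was -0.92. In that fit Cd163 and Timd4 were lower at an unadjusted p under 0.05. The 5 genes had lower means against either non-I/R graft, and by more against 2554.

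The last pair of the resident genes did not follow the others. Mertk, the receptor with which macrophages take up dying cells, had 8.92, 9.12 and 8.90 in the I/R grafts, against 8.89 and 8.32 in the non-I/R grafts. It was the only resident gene with a higher mean, with a log2 fold change of 0.37 (SE 0.206, with adjusted p = 0.472), and its groups were apart by less than 0.01. Cx3cr1, the fractalkine receptor of patrolling monocytes and some resident cells, had 7.97, 7.71 and 7.37 in the I/R grafts, against 7.71 and 7.71 in the non-I/R grafts. Its log2 fold change was -0.03 (SE 0.201), and 3 of its 5 values were tied.

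Genes shared by all macrophages did not separate the groups. The 8 pan-macrophage and lysosomal genes had a median log2 fold change of 0.05, with 5 higher and 3 lower means, none with an unadjusted p under 0.05 and none with groups apart. The median was 0.26 without non-I/R 2554 and -0.15 without non-I/R 2556. Adgre1, the adhesion receptor by which mouse macrophages are usually recognised, had 9.90, 9.38 and 9.17 in the I/R grafts, against 10.04 and 9.26 in the non-I/R grafts. The groups covered nearly the same range, and the log2 fold change was -0.17 (SE 0.357). The lysozyme gene Lyz2 had 12.45, 12.24 and 12.02 in the I/R grafts, against 12.50 and 11.94 in the non-I/R grafts, with 0.02 (SE 0.233). Its near copy Lyz1, whose probes may share its RNA, had 0.08. The highest of the group was Laptm5, a lysosomal protein of blood cells, with 11.21, 11.40 and 10.80 in the I/R grafts, against 11.0 and 10.48 in the non-I/R grafts and a log2 fold change of 0.39 (SE 0.266). The lowest was Ms4a7, with 8.49, 7.75 and 6.98 in the I/R grafts, against 8.15 and 7.71 in the non-I/R grafts and -0.19 (SE 0.52). Between these lay the pore-forming Mpeg1 at 0.28, the lysosomal Cd68 at 0.20 and the calcium-binding Aif1 at -0.15.

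What these 8 genes shared was their order within each group. In all 8 the signal was higher in non-I/R 2554 than in non-I/R 2556, and in all 8 it was the lowest of the I/R grafts in 2557. Over all 34 members, 30 were higher in 2554 than in 2556, 27 had their lowest I/R value in 2557 and 22 their highest in 2553. As the mean deviation from the mean over the 5 grafts, the pan-macrophage genes stood at 0.34, 0.06 and -0.34 in I/R 2553, 2555 and 2557, against 0.20 and -0.27 in non-I/R 2554 and 2556. The spread within a group was therefore wider than the difference between groups. In bulk tissue fewer cells of a type and less RNA per cell cannot be told apart, here and in all the values that follow.

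Recruited and resident genes were set against each other within each graft, as the difference of their mean deviations. This difference was 0.16, 0.51 and 0.41 in I/R 2553, 2555 and 2557, against -0.74 and -0.33 in non-I/R 2554 and 2556. Both non-I/R grafts lay below every I/R graft. The I/R mean exceeded the non-I/R mean by 0.89, by 0.69 without 2554 and by 1.10 without 2556. With genes of the lineage that are not members, 7 other monocyte genes and 10 other resident genes, the same difference was -0.02, 0.76 and 0.41 in the I/R grafts, against -0.79 and -0.36 in the non-I/R grafts. These are descriptions of lists chosen with results known, and no test was made of them.

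**Figure D3:**
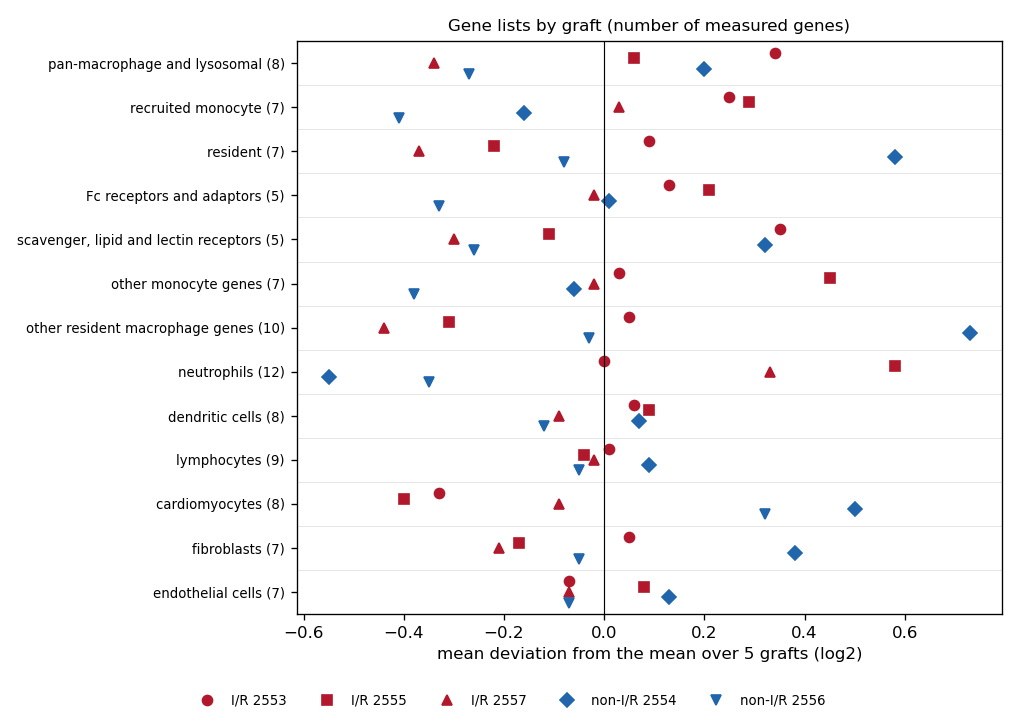
Deviation from the 5-graft mean (log2), averaged over the genes of each list, with 1 point for each graft, I/R grafts in red and non-I/R grafts in blue. Recruited monocyte genes lie between 0.03 and 0.29 in the I/R grafts and between -0.41 and -0.16 in the non-I/R grafts, whereas pan-macrophage genes mix the groups and the resident genes are highest in non-I/R 2554 at 0.58.

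Fc receptors and their signaling adaptors all had higher means in the I/R grafts, with a median log2 fold change of 0.27 over 5 genes. The median was 0.45 without non-I/R 2554 and 0.04 without non-I/R 2556, where Fcgr2b and Fcer1g had 0.00. Tyrobp, the adaptor DAP12 of myeloid and natural killer receptors, had 11.46, 11.51 and 11.17 in the I/R grafts, against 11.06 and 10.83 in the non-I/R grafts. The groups did not overlap, and its log2 fold change was 0.44 (SE 0.145; adjusted p = 0.32). The other adaptor, Fcer1g, the common gamma chain, had 0.27. The low-affinity receptors Fcgr3 and Fcgr4 and the inhibitory receptor Fcgr2b had 0.30, 0.21 and 0.16, and their sequences are similar enough that probes may share RNA. Fcgr2b had the lowest change of the group, with 10.37, 10.43 and 10.26 in the I/R grafts, against 10.35 and 10.04 in the non-I/R grafts. In all 5 genes non-I/R 2556 was the lower non-I/R graft, and in 4 of them only 2554 reached the I/R values.

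Scavenger, lipid and lectin receptors held 1 gene that passed an unadjusted p. Msr1, the class A scavenger receptor that takes up modified lipoproteins, had 10.60, 10.44 and 10.38 in the I/R grafts, against 10.20 and 10.10 in the non-I/R grafts. Its groups were apart by 0.18, with a log2 fold change of 0.32 (SE 0.0842, with adjusted p = 0.29). Gpnmb, a glycoprotein of lipid-laden and lysosome-stressed macrophages, varied more than any other member. It had 8.64, 7.43 and 6.72 in the I/R grafts, against 9.26 and 7.17 in the non-I/R grafts, and the log2 fold change of -0.61 (SE 0.943) was smaller than its error. The lipid receptor Trem2 had 0.22 and the lectin receptor Clec4a1 -0.10. Marco, a scavenger receptor of other tissues' macrophages, was dim, with 5.59, 5.87 and 5.87 in the I/R grafts, against 5.87 and 5.87 in the non-I/R grafts, and 4 of its 5 values were tied.

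Leaving out single grafts changed which members passed an unadjusted p of 0.05. All 6 (Csf1, Ccr2, Chil3, Clec4n, Tyrobp and Msr1) passed without I/R 2557. Without I/R 2553 Csf1, Chil3 and Msr1 did, and without I/R 2555 Csf1 and Chil3 did. Without non-I/R 2556 none of the 6 passed. Without non-I/R 2554 only Csf1 of the 6 did, while F13a1, Mertk, Fcgr2b, Fcgr4 and Fcer1g passed with higher signals. With a non-I/R graft left out, the remaining one is assumed to vary like the I/R grafts. The log2 fold changes of the 6 stayed above 0 in each of these fits.

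The promoters of 4 members are shown because these genes stood at the 2 ends of the list, Chil3 and Ccr2 with the highest changes and Cbr2 and Mrc1 among the lowest. They are the 250 bases before the annotated start, 5′ to 3′ in the direction of the gene, from RefSeq on GRCm38.p6. Capitals mark the core of the PU.1 site, GAGGAA, and the half-site of MAF factors, which act in resident macrophages, TGCTGA, each on either strand. None of the 4 windows holds both motifs. The resident genes Folr2 (-0.65) and Cd163 (-0.62) had lower log2 fold changes than Mrc1 (-0.61) and are not shown. Folr2 held 1 MAF half-site in each of its windows and no PU.1 core, and Cd163 held neither motif. Ccr2 (chr9:124101933-124102182, plus strand) held neither motif, Chil3 (chr3:106167565-106167814, minus strand) 2 MAF half-sites that begin 243 and 101 bases before the start, Cbr2 (chr11:120732022-120732271, minus strand) 1 PU.1 core 79 bases before the start, and Mrc1 (chr2:14229164-14229413, plus strand) 3 PU.1 cores at 180, 167 and 35 bases.
Ccr2: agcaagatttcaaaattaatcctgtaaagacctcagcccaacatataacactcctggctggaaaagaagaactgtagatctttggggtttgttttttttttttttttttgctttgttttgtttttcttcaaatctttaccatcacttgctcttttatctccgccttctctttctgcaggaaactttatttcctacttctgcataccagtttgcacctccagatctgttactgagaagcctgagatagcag
Chil3: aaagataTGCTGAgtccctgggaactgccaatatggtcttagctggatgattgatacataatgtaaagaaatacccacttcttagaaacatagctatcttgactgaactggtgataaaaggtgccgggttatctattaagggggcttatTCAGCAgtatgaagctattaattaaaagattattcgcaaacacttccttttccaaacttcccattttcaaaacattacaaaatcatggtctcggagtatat
Cbr2: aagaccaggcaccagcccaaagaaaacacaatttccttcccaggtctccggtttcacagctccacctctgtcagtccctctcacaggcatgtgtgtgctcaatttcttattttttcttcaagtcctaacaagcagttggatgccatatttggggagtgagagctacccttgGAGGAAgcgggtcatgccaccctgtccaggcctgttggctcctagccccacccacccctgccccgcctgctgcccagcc
Mrc1: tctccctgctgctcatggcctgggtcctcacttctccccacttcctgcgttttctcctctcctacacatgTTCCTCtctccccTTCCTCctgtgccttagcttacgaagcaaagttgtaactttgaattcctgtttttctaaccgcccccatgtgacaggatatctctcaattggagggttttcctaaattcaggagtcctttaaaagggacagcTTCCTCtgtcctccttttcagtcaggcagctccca

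Of the 34 measured members 29 had promoters in the table, in 33 windows, and Csf1r, Adgre1, Clec4n, Tyrobp and Msr1 had no entry. The PU.1 core was found in 13 of the 33 windows (39.4%), for 12 members, and in 23.3% of 32851 windows of all genes. The MAF half-site was found in 10 windows (30.3%), for 8 members, and in 16.1% of all windows. The windows of Fcgr3 overlap, so its PU.1 core and its half-site each count more than once among the windows. The PU.1 core stood in 2 of 6 recruited and 2 of 7 resident genes with a window, and the half-site in 3 of 6 and 2 of 7. A match is a run of letters, and binding was not measured.

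Other genes of the macrophage lineage were described from 6 further lists, in which 45 of 48 genes were measured. Their median log2 fold change was 0.05, with 0.17 without non-I/R 2554 and -0.04 without non-I/R 2556. An unadjusted p under 0.05 was reached by 6 genes with higher and 1 with lower signals, beside 7.64% and 7.35% of all probe sets. The groups were apart in 14 genes with higher and 3 with lower signals, beside 15.8% and 16.2% of all probe sets. In the growth factor axis the receptor chain Csf2ra, which binds GM-CSF, had 9.94, 10.23 and 9.80 in the I/R grafts, against 9.44 and 9.39 in the non-I/R grafts, and a log2 fold change of 0.57 (SE 0.147, with adjusted p = 0.287). Its ligand Csf2 was dim, with 4.84 on 4 arrays and 4.97 in non-I/R 2554. Among 7 myeloid transcription factors Spi1, the gene of PU.1, had 9.84, 10.21 and 9.77 in the I/R grafts, against 9.38 and 9.45 in the non-I/R grafts, and 0.52 (SE 0.159; adjusted p = 0.306). Neither Spi1 nor Csf2ra overlapped between the groups.

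Monocyte chemoattractants did not share a direction. Ccl2, the main ligand of Ccr2, had 11.17, 11.43 and 11.38 in the I/R grafts, against 11.16 and 10.58 in the non-I/R grafts, with a log2 fold change of 0.46 (SE 0.212, with adjusted p = 0.42). Its lowest I/R value exceeded non-I/R 2554 by only 0.02. Ccl8, which resident macrophages make, had 6.75, 5.83 and 5.67 in the I/R grafts, against 7.73 and 6.62 in the non-I/R grafts, and -1.10 (SE 0.532; adjusted p = 0.432). Ccl12 had -0.72, and Ccl7 and the Cx3cr1 ligand Cx3cl1 had 0.04 and -0.03.

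The 7 other monocyte genes had a median of 0.39, with 6 higher means and 1 lower. The lower one was Plac8, a gene of classical monocytes, with 8.17, 8.24 and 7.72 in the I/R grafts, against 9.03 and 8.04 in the non-I/R grafts and a log2 fold change of -0.49 (SE 0.378). Cybb, the oxidase subunit of phagocytes, had 0.08, and Vcan and Thbs1 had 0.38 and 0.39. Itgb2 and Itgam, the chains of the integrin Mac-1 that monocytes and neutrophils share, had 0.53 (SE 0.158; adjusted p = 0.303) and 0.83 (SE 0.295; adjusted p = 0.336). The endotoxin receptor Cd14 had 0.91 (SE 0.364), with 9.02, 9.90 and 8.90 in the I/R grafts, against 8.43 and 8.31 in the non-I/R grafts. The groups were apart in Itgb2, Itgam, Cd14 and Vcan, and in each I/R 2555 was the highest graft.

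Of the 10 other resident genes 9 had lower means, with a median of -0.60, and all 10 were highest in non-I/R 2554. The iron exporter Slc40a1 had 8.19, 7.87 and 8.28 in the I/R grafts, against 9.08 and 8.69 in the non-I/R grafts, and a log2 fold change of -0.77 (SE 0.192, with adjusted p = 0.286). It was the only lower gene with an unadjusted p under 0.05 in the 6 lists. Selenop, a selenium carrier, and Gas6, a ligand of Mertk and Axl, had -0.79 (SE 0.294) and -0.92 (SE 0.389), also with groups apart, and neither they nor Slc40a1 are made by macrophages only. Lyve1 had 10.50, 10.33 and 10.35 in the I/R grafts, against 11.54 and 10.47 in the non-I/R grafts, which set I/R grafts and non-I/R 2556 close to each other. The complement genes C1qa, C1qb and C1qc had -0.59, -0.42 and -0.54. Without 2554 the median of the list was -0.19.

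Genes of macrophage responses had higher means in 10 of 11 cases, with a median of 0.45. The median was 0.73 without I/R 2553 and 0.38 without non-I/R 2556. These genes need not be made by macrophages only, and the part of other cells in their values was not tested. Il10, among the 10, was dim at 4.70 to 4.84, with a log2 fold change of 0.05. Hmox1, which breaks down haem, had 11.75, 12.14 and 11.82 in the I/R grafts, against 10.72 and 11.25 in the non-I/R grafts, and a log2 fold change of 0.91 (SE 0.223, with adjusted p = 0.286). The cytokine Tnf had 7.80, 8.37 and 7.95 in the I/R grafts, against 7.28 and 7.43 in the non-I/R grafts, and 0.69 (SE 0.201; adjusted p = 0.299). Arginase, Arg1, a gene of reparative macrophages, had 0.69 (SE 0.225; adjusted p = 0.316). These 3 had groups apart, as had Il1b, with 9.28, 10.97 and 9.54 in the I/R grafts, against 9.07 and 8.51 in the non-I/R grafts, 1.14 (SE 0.631) and its highest value in I/R 2555.

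**Figure D4:**
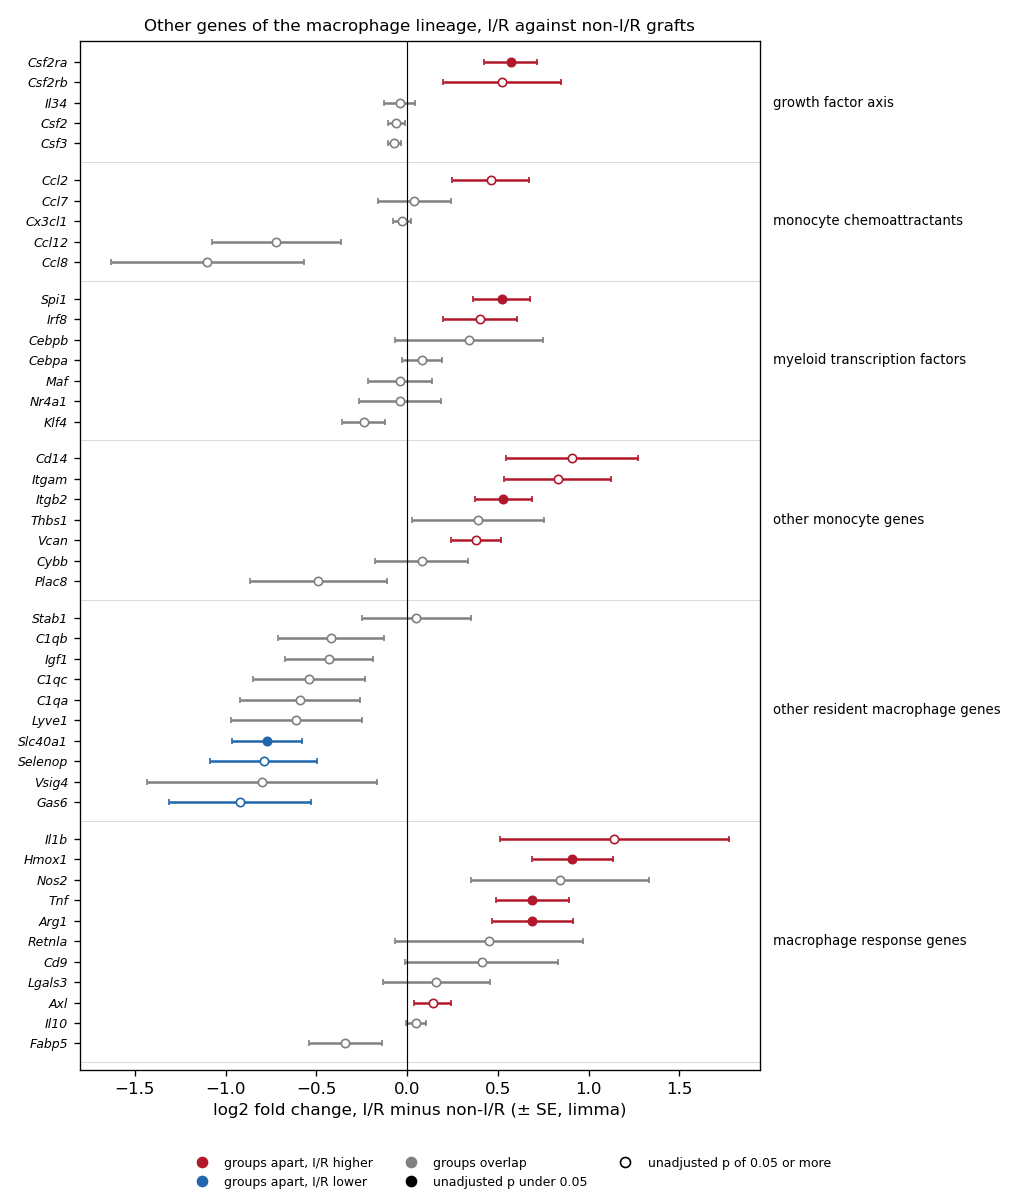
Log2 fold change of I/R against non-I/R grafts for 45 other genes of the macrophage lineage, with its standard error from limma, in 6 lists. Filled points had an unadjusted p under 0.05 and colours mark groups that did not overlap; the resident genes lie between -0.92 for Gas6 and 0.05 for Stab1, and most of the response genes lie above 0.

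Markers of other cells moved with the groups as well. Of 12 neutrophil markers 11 had higher means in the I/R grafts and 6 an unadjusted p under 0.05, where 7.64% of all probe sets were higher, with a median log2 fold change of 0.82. Their mean log2 signal was 8.57, 9.15 and 8.90 in I/R 2553, 2555 and 2557, against 8.02 and 8.22 in non-I/R 2554 and 2556. Ly6g, which defines neutrophils, had 7.95, 8.05 and 8.0 in the I/R grafts, against 7.47 and 7.03 in the non-I/R grafts. The granule genes Ltf and Camp were dim, at 5.18 to 5.32 and 6.05 to 6.26. Chil3, Clec4n, C5ar1, Tyrobp, Fcer1g, Itgam, Itgb2, Cd14 and Csf2ra are also made by neutrophils, and the part of neutrophils in their values was not tested. Within the I/R grafts the mean of the neutrophil markers was lowest in 2553. Of the genes just named, Chil3 and Itgam were also lowest there. Clec4n, C5ar1, Tyrobp, Fcer1g, Itgb2, Cd14 and Csf2ra were lowest in 2557 and, like the mean of the neutrophil markers, highest in 2555. Itgam was also highest in 2555, and Chil3 was highest in 2557. Ccr2 was lowest in 2557 and highest in 2553.

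Markers of heart muscle were bright in every graft, and Tnnt2, cardiac troponin T, had 13.23, 13.29 and 13.61 in the I/R grafts, against 14.0 and 13.82 in the non-I/R grafts. All 8 cardiomyocyte markers had lower means in the I/R grafts, 7 of them with an unadjusted p under 0.05, where 7.35% of all probe sets were lower. Their mean deviation was -0.33, -0.40 and -0.09 in the I/R grafts, against 0.50 and 0.32 in the non-I/R grafts, and its part in the members' values was not tested. The 8 dendritic cell and 9 lymphocyte markers had medians of 0.01 and -0.11. Fibroblast markers had a median of -0.27, and 6 of the 7 were highest in non-I/R 2554, as were 5 of the 7 resident genes. Signals of atrial markers also differed from graft to graft. The atrial light chain Myl7 had 6.72, 11.08 and 8.56 in the I/R grafts, against 10.67 and 5.52 in the non-I/R grafts. Myl4 and Sln were likewise lowest in non-I/R 2556. Nppa did not follow them, with 12.13, 12.56 and 12.56 in the I/R grafts, against 12.95 and 12.61 in the non-I/R grafts. Myl7 was high in non-I/R 2554, where the mean deviation of the resident genes was 0.58, and in I/R 2555, where it was -0.22. Without both of these grafts the median of the resident genes was -0.09 and that of the recruited genes 0.49, and the part of atrial tissue in either was not tested.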

How the data were processed

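Heart graft RNA of 3 I/R and 2 non-I/R samples was measured on Affymetrix Mouse Gene 1.0 ST arrays, grouped by the labels. The authors deposited log2 values of 35556 probe sets made by RMA in Partek (the submitters' processing notes give no versions). RMA subtracts background and forces the arrays onto 1 distribution, so a shift common to most genes would be lost. The genome build of the probe sets is not given in the sources used here. The annotation used gives 21789 probe sets a single symbol and 1621 several, and does not list 12146. Gene IDs were updated through a RefSeq table of GRCm38.p6 (99.6% found).

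The deposited log2 values were tested as they are by lmFit and eBayes of limma (version 3.58.1, R 4.3.3), with a prior df of 0.824 and Benjamini-Hochberg adjustment over all 21789, threshold 0.05. In 11715 probe sets at least 2 arrays had equal values. The fit was also run on simulated data, with independent noise of each probe set's spread on these arrays. Those data held neither the tied values nor differences that many genes of a graft share. The run therefore does not vouch for the p-values here. Members, lists and alternatives were chosen with earlier results of these data known. Values by graft are given for members with groups apart, with an unadjusted p under 0.05, or with the lowest or highest change of their group, and for Adgre1, Csf1r, Ccr2, Timd4 and Lyz2; of the other lists, for the genes with the smallest p or on which a result turns. A few other genes of the lists were not analysed here. Alternatives were the methods' t-test, other eBayes settings, array weights, other normalizations and filters, and leaving out grafts. Plots were made with matplotlib 3.10.9. The miRNA arrays and other assays of the study were not analysed here.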

Additional observations from a re-analysis of the deposited data

How the results depend on the processing

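The 34 members were refitted under 15 alternatives, which gave 505 values. Of these 443 kept their direction and their side of an unadjusted p of 0.05, 27 kept the direction and no longer passed, 10 newly passed and 25 changed sign. Csf1 passed in 13 of the 15, Chil3 in 12, Msr1 in 11, Clec4n in 10, Ccr2 in 9 and Tyrobp in 8, each with a higher signal in all 15. Over the whole array 3265 probe sets had an unadjusted p under 0.05, against 2014 with the methods' t-test and 1898 to 4147 with a graft left out. Members with a higher signal numbered 6 (0 to 6 with a graft left out, and 3 without non-I/R 2554 and I/R 2555), and members with a lower signal 0 (0 to 2 with a graft left out). The median of the resident genes was -0.61 (-0.92 to -0.21 with a graft left out, and -0.09 without 2554 and 2555). Some of the 15 alternatives could not change a direction. Taking the mean of a gene's probe sets repeated the main fit for every member, as each had a single probe set. The t-test, the other eBayes settings and the filters kept the log2 fold changes and could move only the p-values.

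Signs changed only for genes that had not passed. With a graft left out, Csf1r ran from -0.27 to 0.22, Adgre1 from -0.56 to 0.22, Cd68 from -0.03 to 0.43, Lyz1 from -0.05 to 0.22, Lyz2 from -0.26 to 0.29, Aif1 from -0.34 to 0.02, Ms4a7 from -0.57 to 0.19, F13a1 from -0.05 to 0.43, Fcgr1 from -0.23 to 0.30, Cx3cr1 from -0.17 to 0.13, Gpnmb from -1.66 to 0.43 and Clec4a1 from -0.36 to 0.13. Without 2554 and 2555 the values were 0.19 for Csf1r, 0.27 for Adgre1, 0.02 for Ms4a7, 0.51 for Gpnmb and 0.24 for Clec4a1. With array weights they were -0.08 for Lyz2 and -0.09 for Fcgr1. The cause was not tested. Timd4 and Marco were dim, and groups of 3 and 2 grafts leave few degrees of freedom. No paired analysis was possible because the labels give the grafts neither replicate numbers nor a pairing.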

Other observations

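Among genes of other cells, the stem cell factor receptor Kit, listed with mast cell genes, reached 7.98, 8.53 and 8.31 in the grafts I/R 2553, 2555 and 2557, but 6.78 and 6.88 in the grafts non-I/R 2554 and 2556. Its log2 fold change was 1.45 (SE 0.186; limma, adjusted p = 0.282), and the groups did not overlap. The mast cell proteases did not share this: Mcpt4 had -0.23, Tpsb2 0.00 and Cpa3 -0.20, and Cma1 had the same value on all 5 arrays. The platelet genes were highest in I/R 2555 in all 4 cases, with 12.70 for Ppbp there against 10.93 and 11.49 in the other I/R grafts, and 11.26 and 11.42 in the non-I/R grafts. Pf4, Itga2b and Gp9 overlapped between the groups as well. Of these genes Kit was chosen after its values were seen.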
